A study of Rattus norvegicus with 30 samples.

Results

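The proteins of the cytosolic ribosome are encoded by the Rpl genes (large subunit) and the Rps genes (small subunit), and 43 of them were followed here in rat hepatocytes dosed with sodium valproate. Members were taken by platform symbol, as Rpl or Rps followed by a digit, or Rplp0, Rplp1, Rplp2 or Rpsa, without the S6 kinases and without names ending in a pseudogene or like suffix. Only array probesets with 1 gene symbol counted, which gave 29 large-subunit and 14 small-subunit genes on 49 probesets, of 14217 genes and 31042 probesets in all. The 7 kinase names and 7 like or pseudogene names were left out by the rule. A further 33 probesets carried a ribosomal protein symbol among several symbols, and no gene was named from them, so Rplp1, Rplp2 and Rps4x have no value of their own. The labels describe thawed primary hepatocytes of male Sprague Dawley rats, grown in collagen-coated wells under a Matrigel overlay and dosed on day 3 of culture. The 6 groups of 5 wells received water, 0.5 mM sodium valproate or 10 mM sodium valproate and were harvested at 24 h or at 48 h, so all groups share the freezing, the substrate and the water vehicle. The labels call the 5 wells of a group independent cultures, but the sources used here do not give the number of donor animals. All p-values therefore measure the spread between cultures.

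Ribosomal proteins make up the ribosome together with ribosomal RNA, and their mRNAs are among the most abundant of a cell. Most of these mRNAs begin with a terminal oligopyrimidine tract (TOP), a C followed by a run of pyrimidines, through which growth signals acting by way of mTOR and the protein Larp1 control their translation. In hepatocytes, which secrete the bulk of the plasma proteins, ribosome content follows nutrition and growth. Valproate, an anti-epileptic drug, is a short fatty acid with a branched chain that also inhibits histone deacetylases.

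The start of these genes is shown first, because the shared TOP start is the sequence feature the family is known for. RefSeq windows of the GRCr8 assembly, from 15 bases before to 15 bases after the annotated start (30 bases), were found for 38 of the 43 genes. The windows below are those of 10 genes described later, 5′ to 3′ on the gene's strand. Capitals mark the tract nearest the start, counted from a C that is followed by at least 4 pyrimidines.

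Rplp0 (chr12:46718376-46718405, minus strand): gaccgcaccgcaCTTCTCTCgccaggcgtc

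Rpl35a (chr11:81235007-81235036, minus strand): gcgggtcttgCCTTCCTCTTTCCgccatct

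Rpl14 (chr8:129163605-129163634, plus strand): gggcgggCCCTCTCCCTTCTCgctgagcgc

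Rpl13a (chr1:104748899-104748928, minus strand): CCTCTTCCTTTCCTaggcggctgccgaaga

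Rps4y2 (chr4:183000898-183000927, plus strand): gcgcgcagCTCTCCTCactcgcttgtgctc

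Rps9 (chr1:74430423-74430452, minus strand): tccggcggccacgtttCTCTTTgtcacggg

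Rps6 (chr5:106420526-106420555, minus strand): gacgCCTCCTaggcggtcggctgtgtcaag

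Rpl3 (chr7:113507976-113508005, minus strand): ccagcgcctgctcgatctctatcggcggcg

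Rpl18 (chr1:105325255-105325284, plus strand): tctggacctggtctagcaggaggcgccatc

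Rpl24 (chr11:58128391-58128420, minus strand): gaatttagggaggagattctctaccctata

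Rplp0, Rpl35a and Rpl14 have a tract that spans the annotated start and hold a C there, and the tract of Rps4y2 also reaches it. The tracts of Rpl13a and Rps6 end before the start. The tract of Rps9, counted from its first C, begins after the start, but the t bases just before that C extend the pyrimidine run over the start. The windows of Rpl3, Rpl18 and Rpl24 hold no C followed by 4 pyrimidines. Over all members with a window, 12 of 38 (31.6%) had a C at the annotated start followed by at least 4 pyrimidines, against 2.63% of all 27457 windows. With a C within 10 bases of the start on either side followed by 4 pyrimidines, a rule chosen after the first count was seen, the shares were 71.1% and 28.8%. In windows from 250 bases before to 50 after the start, searched on both strands, the ETS core CCGGAA was in 36.8% of members and 15.8% of all windows. The Sp1 core GGGCGG was in 65.8% and 34.9%, and the YY1-type motif AAGATGG in 21.1% and 7.3%. These counts describe letters only, and an annotated start can lie some bases from the one used in hepatocytes.

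Most of the family was read in a narrow range of high signal. Values are log2(signal + 16) of the array's scaled intensity, and each gene is represented by its brightest probeset. The probesets of 38 genes had means between 14.86 and 16.11 over the 30 arrays, while the highest signal of an array lay between 16.23 and 16.86. The other 5 were dim, namely Rps4y2, Rpl39, Rpl30, Rps13 and Rpl28, and Rpl28 fell under the filter on low signal, which left 42 genes tested of the 43. A probeset's signal also depends on its probes, so levels were not compared between genes. The bright genes varied little, with a median standard deviation (SD) between cultures of a group of 0.098, against 0.103 for 209 other genes in the same signal range and 0.210 for all 11604 genes tested. After each array was centred on the median of the 38 genes, that SD was 0.054, so much of the spread between cultures was a shift these genes had in common. That shift was not the family's alone. In the 5 water cultures of 24 h the median deviations of the 38 from their means over 30 arrays were -0.12, 0.08, -0.05, -0.02 and 0.14. Those of the 209 other genes were -0.06, 0.08, -0.02, 0.04 and 0.19. Whether the scale is compressed at this signal was not tested.

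**Figure D1:**
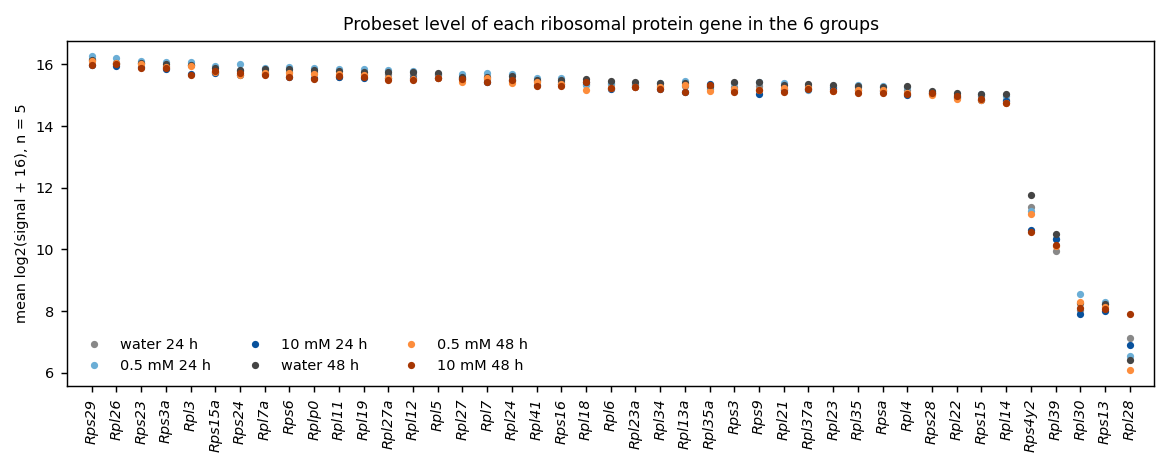
Mean log2(signal + 16) of the probeset representing each of the 43 ribosomal protein genes (vertical axis) in the 6 groups of 5 cultures (colours), with genes ordered by their mean over all arrays. For 38 genes the mean over all arrays lies between 14.86 and 16.11, and Rps4y2, Rpl39, Rpl30, Rps13 and Rpl28 lie below.

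By the actin ratio, RNA quality differed between 3 arrays and the other 27. Degraded RNA gives more signal from the 3′ end of a transcript than from the 5′ end, and for actin the log2 of this ratio was between 2.23 and 2.77 in replicate 3 of water at 24 h and in replicates 3 and 4 of 0.5 mM at 48 h. It was between 1.05 and 1.74 on the others. The same ratio for GAPDH was between 0.37 and 0.41 on the 3 arrays. It was 0.30 in replicate 5 of 0.5 mM at 48 h, which also had the actin ratio of 1.74, and at most 0.23 on the rest. So replicates 3, 4 and 5 of 0.5 mM at 48 h all stood high on the GAPDH ratio. Replicate 5 was not among the 3 arrays left out together below. The median deviation of the bright genes from their means over 30 arrays was between -0.10 and -0.04 on the 3 arrays and between -0.21 and 0.22 on the other 27. Counts that rest on these arrays are given below with and without them.

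How the family moved as a whole depended on how the arrays were put on one scale. As deposited, with arrays scaled to one trimmed mean, the median change of the 42 tested genes was -0.09 at 10 mM and 24 h, -0.18 at 10 mM and 48 h, 0.12 at 0.5 mM and 24 h, and -0.14 at 0.5 mM and 48 h. These correspond to signals of -6.30%, -11.7%, 8.31% and -9.28% against water. Over all genes tested the medians were 0.07, 0.03, 0.02 and -0.01. The 209 other genes in the bright signal range had medians of -0.21, -0.21, 0.17 and 0.03, so at 10 mM and at 0.5 mM and 24 h the change of the family had the sign of that of other bright genes. At 0.5 mM and 48 h it did not. After quantile normalization, which gives all arrays one distribution, the medians of the family were 0.11, 0.003, -0.05 and -0.16. After centring each array on its median they were -0.27, -0.27, -0.09 and -0.14, where that centring moved the median of all genes to -0.11, -0.06, -0.18 and -0.01. Only at 0.5 mM and 48 h did the 3 scalings give medians within 0.1 of each other, from -0.16 to -0.14, while the other bright genes stood between 0.02 and 0.03. The direction at both 24 h comparisons turned with the scaling, and at 10 mM and 48 h the quantile-normalized median was close to 0. In a culture, fewer hepatocytes and less RNA in each hepatocyte cannot be told apart.

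**Figure D2:**
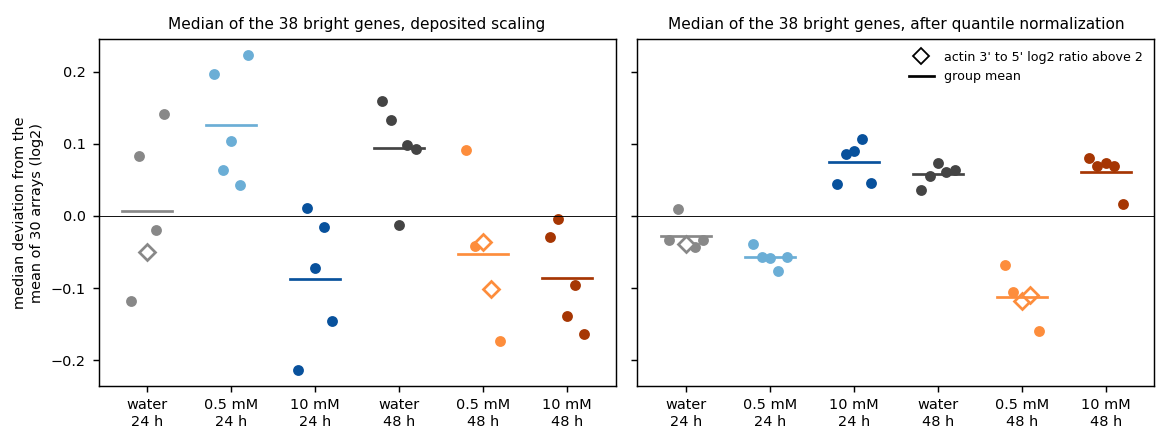
Median deviation of the 38 bright ribosomal protein genes from their mean over 30 arrays (log2, vertical axis) in each culture (points), by group, with the group mean as a line, scaled as deposited (left) and after quantile normalization (right). The 10 mM cultures lie below the water cultures of 48 h in the mean as deposited but not after quantile normalization, the mean of the 0.5 mM cultures of 48 h lies below that of water of 48 h on both sides (with 1 culture above the lowest water culture as deposited), and the open diamonds are the 3 arrays with an actin ratio above 2.

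At 10 mM and 24 h the number of members called and their direction rested on the scaling. In the fit as deposited 1 of 42 was called higher and 8 lower, or 2.38% and 19%, where 31.1% of all genes tested were called higher and 25% lower. Of the 209 other bright genes 10.5% were called higher and 60.3% lower. After quantile normalization 22 members were higher and 2 lower, with 28.7% and 27.6% of all genes, and after median centring 0 members were higher and 30 lower. The share of all genes called was not computed for median centring, so its counts, here and below, have no background beside them. A call is an adjusted p under 0.05 from limma, with Benjamini-Hochberg adjustment over all probesets tested. As deposited, leaving out water replicate 1 or 10 mM replicate 2 gave 13 lower in place of 8. The 8 falls were those of Rps4y2, Rpl3, Rps9, Rps29, Rpl13a, Rpl6, Rplp0 and Rpl4, and the rise was that of Rpl35a.

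Rps4y2, by name a form of the small-subunit protein S4, had the largest fall. Its probeset read 11.34, 11.42, 11.07, 11.24 and 11.79 in the 5 water cultures at 24 h. At 10 mM it read 10.65, 10.48, 10.69, 10.75 and 10.61. No treated value reached the lowest water value. The change was -0.73 ± 0.12 (standard error of the fit, n = 5, adjusted p = 5.97e-06) and it was called in each of 25 alternatives, between -0.91 and -0.63. Its signal was dim only beside the bright members, with a mean of 11.12 at the 69.4 percentile of genes. Because related S4 genes exist, signal from a near-identical gene cannot be told apart from its own.

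Rpl3, which lies close to the peptidyl transferase centre of the large subunit, was the bright gene with the largest fall. It read 15.76, 16.05, 15.98, 15.93 and 16.12 in water at 24 h. With 10 mM the cultures read 15.56, 15.76, 15.67, 15.74 and 15.63. The ranges met at 1 water culture, replicate 1. The change was -0.29 ± 0.06 (adjusted p = 0.000285), and after quantile normalization it was still called. The second, dimmer probeset of Rpl3 changed by -0.08 ± 0.19, and the mean of both by -0.19, which was not called.

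Rps9, a small-subunit protein, read 15.14, 15.50, 15.05, 15.30 and 15.50 in water at 24 h and 14.89, 15.18, 15.08, 15.06 and 15.04 at 10 mM. Replicates 2 and 5 of water were highest, and the groups overlapped. Its change was -0.25 ± 0.08 (adjusted p = 0.00826), with -0.03 and no call after quantile normalization. Rpl13a, a large-subunit protein that can leave the ribosome and repress inflammatory mRNAs, read 15.25, 15.29, 15.51, 15.28 and 15.24 in water, where replicate 3 stood apart. At 10 mM it read 15.07, 15.12, 15.17, 15.25 and 14.99. The groups overlapped at 1 treated culture. The change was -0.19 ± 0.05 (adjusted p = 0.00265), and 0.03 after quantile normalization. Rps29, one of the smallest proteins of the small subunit, read 15.99, 16.22, 16.20, 16.12 and 16.31 in water and 15.86, 16.09, 15.99, 15.97 and 15.96 at 10 mM, with overlap. It changed by -0.20 ± 0.06 (adjusted p = 0.0126), and by -0.06 without a call after quantile normalization.

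Rpl35a, a large-subunit protein mutated in some families with Diamond-Blackfan anaemia, was the 1 member called higher at 10 mM and 24 h. Its water cultures read 15.14, 15.32, 15.19, 15.15 and 15.27. The 10 mM cultures read 15.27, 15.47, 15.36, 15.41 and 15.26, which overlapped. The change of 0.14 ± 0.05 (adjusted p = 0.0333) was -0.04 after median centring and 0.36 after quantile normalization. Its call was lost without water replicate 1, 3 or 4 and without 10 mM replicate 2, 3 or 4, while the change stayed between 0.11 and 0.16 whichever culture was left out.

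Members that bear on other processes were followed in both times whatever their change. Rplp0, the base of the stalk that binds elongation factors, read 15.56, 15.83, 15.76, 15.65 and 15.90 in water at 24 h and 15.45, 15.70, 15.51, 15.67 and 15.52 at 10 mM. Those groups overlapped, and the change was -0.17 ± 0.06 (adjusted p = 0.0295) and -0.02 after quantile normalization. The call was lost without water replicate 2 or 5 and without 10 mM replicate 1, 3 or 5. Rps6, the target of the S6 kinases, read 15.62, 15.82, 15.66, 15.70 and 15.90 in water and 15.49, 15.67, 15.58, 15.69 and 15.58 at 10 mM. It changed by -0.14 ± 0.06, which was not called, by 0.02 without a call after quantile normalization and by -0.32 with a call after median centring. Rps6 was also called lower with the filter at the 50th percentile, with array weights, with the actin ratio as a covariate and without the 3 arrays of high actin ratio, at adjusted p between 0.0213 and 0.0438. Rpsa, also known as a laminin receptor, changed by -0.04 ± 0.06, while Rpl5 and Rpl11, which bind 5S rRNA and can bind the p53 regulator Mdm2, changed by -0.10 ± 0.06 and -0.01 ± 0.06. None of these 3 was called as deposited, and Rpsa (0.19) and Rpl11 (0.18) were called higher after quantile normalization, whereas Rpsa (-0.22) and Rpl5 (-0.28) were called lower after median centring.

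At 10 mM and 48 h the calls of the family lay in one direction as deposited. Of 42 members in the limma fit 0 were called higher and 25 lower (59.5%), where 27.6% of all genes were higher and 22.3% lower. Of the 209 other bright genes 10.5% were higher and 56.9% lower, so the share of falls in the family was near theirs. After quantile normalization 4 members were higher and 6 lower, with 26% and 24.6% of all genes, so the number of falls rested on the scaling. The 0 rises stood beside 27.6% of all genes, and the large subunit with 17 of 28 lower and the small subunit with 8 of 14 lower had shares of 60.7% and 57.1%.

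Rps4y2 again had the largest fall. In water at 48 h it read 11.82, 11.65, 11.71, 11.75 and 11.85. At 10 mM it read 10.72, 10.78, 10.41, 10.42 and 10.52, so that the lowest water value exceeded the highest treated value. The change was -1.19 ± 0.12 (adjusted p = 1.28e-09), between -1.28 and -1.04 over 25 alternatives.

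Rpl3 read 16.04, 16.01, 15.87, 16.02 and 15.98 in water at 48 h and 15.73, 15.79, 15.60, 15.61 and 15.59 at 10 mM, without overlap. The change was -0.32 ± 0.06 (adjusted p = 0.000148). Rpl13a read 15.43, 15.49, 15.35, 15.32 and 15.41 in water and 15.08, 15.12, 15.09, 15.13 and 15.04 at 10 mM, also apart, with a change of -0.31 ± 0.05 (adjusted p = 1.26e-05). The 10 mM cultures of Rpl13a lay within 0.1 of each other, closer together than the water cultures. Rpl13a lost its call after quantile normalization (-0.11), and Rpl3 lost its call when its probesets were averaged (-0.23).

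Rplp0 read 15.93, 15.84, 15.68, 15.85 and 15.79 in water at 48 h. At 10 mM the 5 values were 15.56, 15.64, 15.45, 15.53 and 15.41, all under the lowest water value. It changed by -0.30 ± 0.06 (adjusted p = 0.000284), and the call stood in each of 26 alternatives, between -0.39 and -0.13. The same was true of Rps6, which read 15.92, 15.88, 15.76, 15.87 and 15.85 in water and 15.65, 15.74, 15.49, 15.55 and 15.56 at 10 mM without overlap and changed by -0.26 ± 0.06 (adjusted p = 0.000505), between -0.35 and -0.11 over 26 alternatives.

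Rps3, which lines the channel by which mRNA enters the small subunit, read 15.48, 15.51, 15.24, 15.37 and 15.48 in water at 48 h and 15.08, 15.26, 15.08, 15.17 and 15.01 at 10 mM. Replicate 3 of water was lowest and overlapped the treated values. The change was -0.30 ± 0.07 (adjusted p = 0.0012), and -0.10 without a call after quantile normalization. Rpsa changed by -0.19 ± 0.06 (adjusted p = 0.00931), Rpl5 by -0.16 ± 0.06 (adjusted p = 0.0409) and Rpl11 by -0.16 ± 0.06 (adjusted p = 0.0321). These 3 were called lower as deposited, overlapped between the groups and stood at 0.03, 0.04 and 0.03 after quantile normalization. Rpl35a was the 1 member with a positive change, 0.04 ± 0.05, which was not called.

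**Figure D3:**
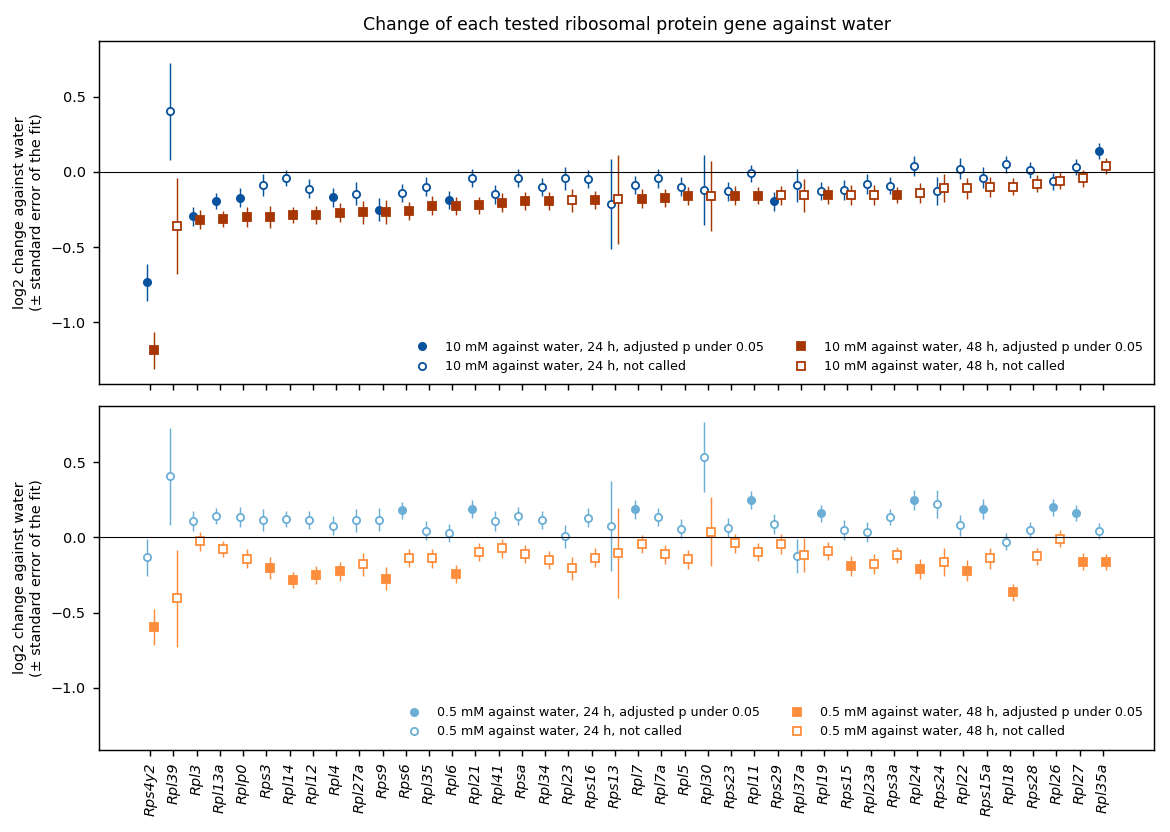
Change of each of the 42 tested ribosomal protein genes against water (log2, with the standard error of the limma fit) at 10 mM (upper) and at 0.5 mM (lower), at 24 h (circles) and 48 h (squares), as deposited; filled symbols have an adjusted p under 0.05. At 48 h 41 of 42 genes lie below 0 at either dose, while at 24 h the sign differs between the doses; the medians at 24 h change sign with the scaling of the arrays, and that at 10 mM and 48 h is 0.003 after quantile normalization.

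**Figure D4:**
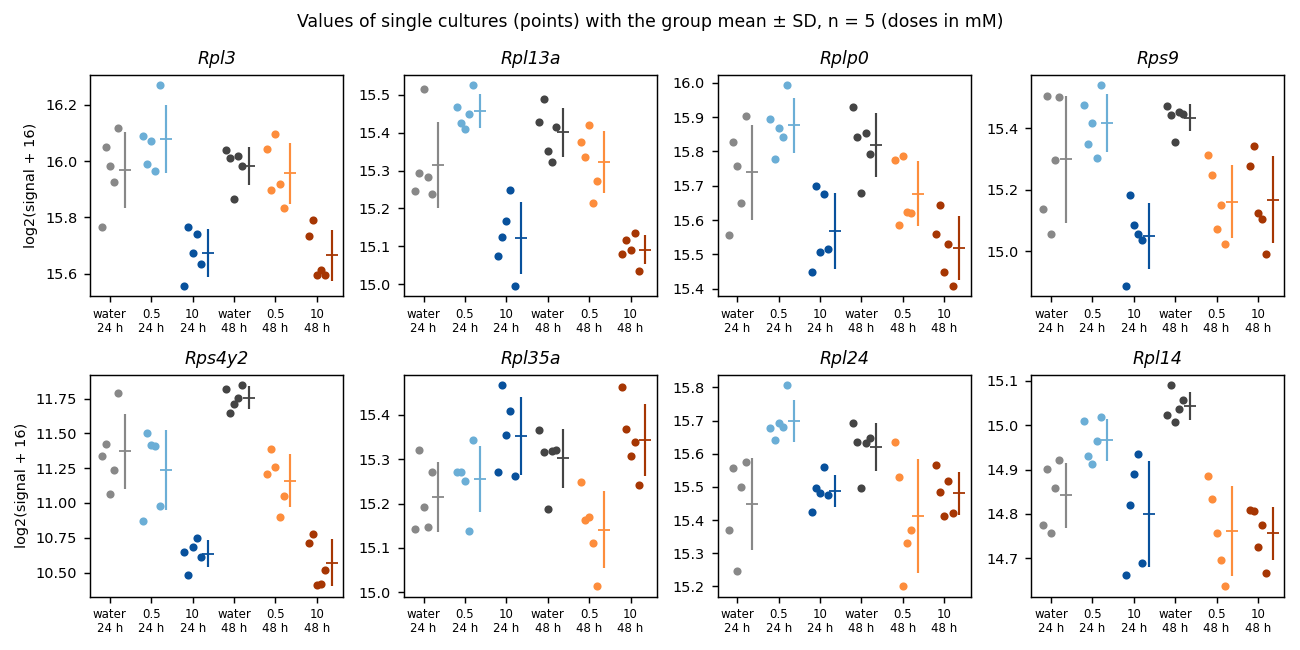
Log2(signal + 16) in each of the 5 cultures of a group (points) with the group mean ± SD, for 8 ribosomal protein genes, as deposited (horizontal axis, dose in mM and hours). Rps4y2 and Rpl3 are lowest at 10 mM, Rpl35a is not, and Rpl24 and Rpl14 lie below the water mean of 48 h at 0.5 mM and 48 h and above the water mean of 24 h at 0.5 mM and 24 h.

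With 0.5 mM for 24 h, 9 of 42 members (21.4%) were called higher and 0 lower, where 12.7% of all genes were higher and 16.1% lower. After quantile normalization 1 was higher and 7 lower, with 11.3% and 15.2% of all genes, so this direction also rested on the scaling. The rises were those of Rpl24, Rpl11, Rpl26, Rps15a, Rpl21, Rpl7, Rps6, Rpl27 and Rpl19, from 0.16 to 0.25. Of the 209 other bright genes 48.8% were called higher. The count of members was 3 without water replicate 1 or 0.5 mM replicate 1, 4 without 0.5 mM replicate 5 and 5 without water replicate 4.

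Rpl24, which forms a bridge between the subunits, read 15.37, 15.56, 15.25, 15.50 and 15.57 in water at 24 h. At 0.5 mM it read 15.68, 15.64, 15.69, 15.68 and 15.81, above each water culture. The change was 0.25 ± 0.06 (adjusted p = 0.00521). Rpl11 read 15.48, 15.68, 15.50, 15.61 and 15.74 in water and 15.91, 15.74, 15.84, 15.77 and 16.01 at 0.5 mM, where replicate 2 of the treated cultures met replicate 5 of water without passing below it. Its change was 0.25 ± 0.06 (adjusted p = 0.00233) and was still called after quantile normalization. Rpl26, which also binds the mRNA of p53, read 15.87, 16.05, 16.07, 15.91 and 16.15 in water and 16.33, 16.10, 16.14, 16.12 and 16.37 at 0.5 mM, with overlap, and changed by 0.20 ± 0.06 (adjusted p = 0.0108). After median centring the changes of Rpl24, Rpl11 and Rpl26 were 0.05, 0.05 and 0.0009, and none was called.

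With 0.5 mM for 48 h, 0 of 42 members were called higher and 13 lower (31.0%), where 11.9% of all genes were higher and 14.1% lower. After quantile normalization 0 were higher and 30 lower, with 12.3% and 14.6% of all genes. All 38 bright genes had a negative change as deposited, against 87 of the 209 other bright genes. Without the 3 arrays of high actin ratio 7 were lower. Without 0.5 mM replicate 4 the count was 7, and without 0.5 mM replicate 5, water replicate 1 or water replicate 2 it was 8.

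Rps4y2 read 11.21, 11.38, 11.26, 10.90 and 11.05 at 0.5 mM and 48 h, all below the water values of that time, and changed by -0.59 ± 0.12 (adjusted p = 0.000482). Rpl18, a large-subunit protein, read 15.57, 15.55, 15.41, 15.53 and 15.54 in water at 48 h. At 0.5 mM it read 15.33, 15.21, 15.13, 15.09 and 15.03, apart from water. Its change of -0.36 ± 0.06 (adjusted p = 2.05e-05) was called in each of 26 alternatives, between -0.41 and -0.23. At 10 mM the same gene read 15.50, 15.50, 15.37, 15.42 and 15.33 and changed by -0.10 ± 0.06, which was not called. Rpl14, another large-subunit protein, read 15.02, 15.09, 15.01, 15.04 and 15.06 in water and 14.89, 14.83, 14.76, 14.70 and 14.64 at 0.5 mM, without overlap. It changed by -0.28 ± 0.05 (adjusted p = 0.00022) and lost its call when its 2 probesets were averaged (-0.17).

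In water alone, as deposited, of 42 members 2 were called higher at 48 h than at 24 h and 0 lower, where 5.11% of all genes were higher and 4.96% lower, and the median change was 0.09 (0.09 after quantile normalization and -0.003 after median centring). After quantile normalization 14 members were called higher, and after median centring 0, with no share of all genes computed for either. The 2 called as deposited were Rps4y2 (0.38 ± 0.12, adjusted p = 0.0464) and Rpl14 (0.20 ± 0.05, adjusted p = 0.0172). Rpl14 read 14.78, 14.90, 14.76, 14.86 and 14.92 in water at 24 h, under each of its values at 48 h. Without replicate 1 or without replicate 3 of water at 24 h 0 members were called, and without any one of 7 other water cultures 1 was.

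The effect of a dose was then set against itself at the other time, as the change at 48 h minus the change at 24 h, a contrast that holds the water cultures of both times. For 10 mM, 1 member was called and it was lower, Rpl14 (-0.24 ± 0.08, adjusted p = 0.034), where 6.63% of all genes were called higher and 6.20% lower. After quantile normalization 6 members were lower, and after median centring 0, again without a share of all genes. For 0.5 mM, 23 members were called lower (54.8%) and 0 higher, where 12% of all genes were higher and 9.69% lower. The largest were Rpl24 (-0.46 ± 0.09, adjusted p = 0.00117), Rpl14 (-0.41 ± 0.08, adjusted p = 0.000643) and Rps9 (-0.39 ± 0.11, adjusted p = 0.0132). Rpl24 read 15.69, 15.64, 15.50, 15.63 and 15.65 in water at 48 h and 15.64, 15.53, 15.20, 15.33 and 15.37 at 0.5 mM, with replicate 3, an array of high actin ratio, lowest. Without the 3 arrays of high actin ratio 6 members were called, with that ratio as a covariate 2, and after median centring 0. Without 0.5 mM replicate 4 or 5 of 48 h 13 members were called, without water replicate 1 of 48 h 14, and without water replicate 1 of 24 h, water replicate 2 of 48 h or 0.5 mM replicate 5 of 24 h 15. The call of Rpl14 at 10 mM was lost when any one of 9 cultures was left out, among them water replicates 1 and 3 of 24 h.

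The doses were also set against each other, in a contrast added after the data were seen. At 24 h 31 of 42 members were lower at 10 mM than at 0.5 mM and 0 higher, where 32.9% of all genes were higher and 26.4% lower. The median was -0.22 as deposited, -0.20 after median centring and 0.13 after quantile normalization, and that of the 209 other bright genes was -0.39 as deposited. Of those 209 genes 3.83% were called higher and 81.3% lower at 24 h. After quantile normalization 27 members were higher and 2 lower at 24 h, so this direction turned with the scaling, and after median centring 18 members were lower. At 48 h, as deposited, 2 members were higher, Rpl18 (0.27 ± 0.06, adjusted p = 0.000266) and Rpl35a (0.20 ± 0.05, adjusted p = 0.00226). The 4 lower at 48 h were Rps4y2, Rpl3, Rpl13a and Rplp0, from -0.59 to -0.16, where 30.0% of all genes were higher and 23.8% lower. The other 36 were not called as deposited, which does not show that the doses acted alike. After quantile normalization 30 were higher and 1 lower at 48 h, and after median centring 0 higher and 8 lower. For neither scaling was the share of all genes computed in the contrast between doses. The median at 48 h was -0.05 as deposited, 0.16 after quantile normalization and -0.14 after median centring. The 209 other bright genes had a median of -0.24 at 48 h as deposited, with 10% called higher and 58.4% lower, against 4.76% and 9.52% of members.

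Differences among members remain when the shared shift is taken out. For this each array was centred on the median of the 38 bright genes, a step added after the data were seen that hides any change of the family itself. At 10 mM and 24 h 3 members were then higher and 7 lower, where 32.5% of all genes were higher and 21.3% lower. Rpl35a stood 0.20 above the family (adjusted p = 3.49e-05) and Rpl18 0.11 above it (adjusted p = 0.00354), while Rpl3 stood at -0.23 (adjusted p = 2.78e-06) and Rps4y2 at -0.67 (adjusted p = 5.09e-05). At 10 mM and 48 h 2 were higher and 10 lower, where 33.9% of all genes were higher and 14.7% lower. Rpl35a was again above the family at 0.18 (adjusted p = 0.000123), and Rpl3 below it at -0.18 (adjusted p = 0.000221).

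At 0.5 mM Rpl18 was the bright member called below the family at both times. After centring on the family, 2 members were higher and 1 lower at 24 h, where 5.56% of all genes were higher and 20.3% lower. The 1 was Rpl18 (-0.14, adjusted p = 0.00152), and the 2 were Rpl11 (0.14) and Rpl24 (0.14). At 48 h 2 were higher, Rpl26 (0.13) and Rpl3 (0.11), and 5 lower, where 18.2% of all genes were higher and 5.58% lower. Rpl18 then stood at -0.23 (adjusted p = 1.5e-06). Between the doses at 48 h, with the family centred, Rpl18 was higher at 10 mM by 0.27 (adjusted p = 5.78e-09) and Rpl35a by 0.21 (adjusted p = 1.75e-05), while Rpl3 differed by -0.28 (adjusted p = 1.06e-07).

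The remaining members are accounted for as follows. Over the 4 comparisons of a dose with water, 8 of the 42 members were called in none, 16 in 1, 14 in 2 and 4 in 3 (Rpl4, Rpl6, Rps4y2 and Rps9). The same split was not made over all genes, so it does not show whether the members differ from other genes in this. The 8 were the bright genes Rpl23, Rpl23a, Rpl37a, Rps24 and Rps28 and the dim genes Rpl30, Rpl39 and Rps13. Rpl39, of the exit tunnel, read 10.57, 9.42, 10.45, 9.41 and 9.85 in water at 24 h and changed by 0.40 ± 0.32 at 10 mM, so its cultures spread more widely than those of the bright genes. Where a gene had several probesets they did not always move together. The brightest of Rps24 changed by 0.22 ± 0.09 at 0.5 mM and 24 h (adjusted p = 0.0859), while the dimmer one changed by -0.41 ± 0.09 (adjusted p = 0.00151). The 3 probesets of Rpsa changed by -0.19, -0.22 and -0.10 at 10 mM and 48 h. The 33 probesets that carry several symbols had medians of -0.08, -0.19, 0.14 and -0.16 in the 4 comparisons with water, beside -0.09, -0.18, 0.12 and -0.14 of the members.

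Genes of related function, from lists that were chosen with earlier results of these data known, were set beside the members. The first list was ribosome assembly, the nucleolar factors that process rRNA and build the subunits, of which 62 of 64 were tested. At 0.5 mM and 24 h 2 were called higher and 43 lower (69.4%, against 16.1% of all genes), with a median of -0.45. At 0.5 mM and 48 h 0 were higher and 38 lower (61.3%, against 14.1%), with a median of -0.34. At 10 mM and 24 h the same list had 15 higher and 15 lower (24.2% and 24.2%, against 31.1% and 25% of all genes), with a median of 0.03. At 10 mM and 48 h it had 12 higher and 13 lower (19.4% and 21%, against 27.6% and 22.3% of all genes), with a median of 0.01. Set directly against 0.5 mM, 10 mM had 39 of the 62 called higher and 6 lower at 24 h (62.9% higher against 32.9% of all genes) and 39 higher and 4 lower at 48 h (against 30.0%). Over 26 alternatives the count of falls at 0.5 mM lay between 38 and 53 at 24 h and between 23 and 39 at 48 h, and the medians kept their sign under quantile normalization (-0.38 and -0.34) and median centring (-0.65 and -0.35).

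The largest falls of assembly genes at 0.5 mM and 24 h were those of Rrp1b, a nucleolar protein of rRNA processing, at -2.19 ± 0.33 (adjusted p = 8.95e-06), and Utp20, of the small-subunit processome, at -1.54 ± 0.28 (adjusted p = 0.000169). Nolc1, a chaperone of small nucleolar RNPs, changed by -1.12 ± 0.10 (adjusted p = 3.31e-10) and Rrp12, which acts in subunit export, by -1.12 ± 0.16 (adjusted p = 4.26e-06). At 48 h they were Noc4l (-0.99 ± 0.10), Ebna1bp2 (-0.96 ± 0.07), the RNA helicase Ddx21 (-0.78 ± 0.07) and the rRNA methylase fibrillarin, Fbl (-0.72 ± 0.07). At 10 mM the list split. Dimt1, which dimethylates the small-subunit rRNA, rose by 1.27 ± 0.10 at 24 h, while Dkc1, the pseudouridine synthase, changed by -1.09 ± 0.13, nucleolin, Ncl, by -0.90 ± 0.08 and Utp20 by -0.88 ± 0.28. At 48 h Dkc1 stood at -0.91 ± 0.13, and Rrp12, Gnl2 and Mdn1 were higher by 0.81 ± 0.16, 0.80 ± 0.10 and 0.80 ± 0.19.

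Of 16 genes of RNA polymerase I and rRNA transcription, which share Polr1b with the assembly list, 8 fell and 0 rose at 0.5 mM and 24 h (50% lower, against 16.1% of all genes), and 7 fell and 1 rose at 48 h (43.8% lower, against 14.1%), with medians of -0.34 and -0.19. At 10 mM 4 were higher and 3 lower at 24 h (against 31.1% and 25% of all genes) and 2 higher and 2 lower at 48 h (against 27.6% and 22.3%). Polr1b, the second largest subunit, changed by -1.10 ± 0.13 at 0.5 mM and 24 h, Polr1a, the largest, by -1.24 ± 0.15 at 10 mM and 24 h, and Polr1f by 0.74 ± 0.08 at 10 mM and 48 h.

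Other mRNAs with a TOP start encode mainly translation factors, besides a few proteins of other roles. Of 14 such genes 4 rose and 5 fell at 10 mM and 24 h (28.6% and 35.7%, against 31.1% and 25% of all genes), and 3 higher and 5 lower at 48 h (21.4% and 35.7%, against 27.6% and 22.3%). Vim, a filament protein also abundant in cells other than hepatocytes, changed by -1.53 ± 0.10 and -1.74 ± 0.10, Eif3h, an initiation factor, by 0.40 ± 0.06 at 24 h, and the elongation factor Eef1a1 by -0.31 ± 0.05 at 48 h. At 0.5 mM and 24 h 1 was higher and 3 lower (7.14% and 21.4%, against 12.7% and 16.1% of all genes), with a median of -0.02. At 0.5 mM and 48 h 0 were higher and 8 lower (57.1%, against 14.1% of all genes), with a median of -0.20. Those lower at 48 h included Hnrnpa1 (-0.50 ± 0.07), Nap1l1 (-0.43 ± 0.06), Eef1d (-0.34 ± 0.07) and Eef1g (-0.28 ± 0.08).

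Mitochondrial ribosomal proteins, which build the separate ribosome of mitochondria, had 33 of 73 lower and 18 higher at 10 mM and 24 h (45.2% and 24.7%, against 25% and 31.1% of all genes). At 48 h 35 were lower and 13 higher (47.9% and 17.8%, against 22.3% and 27.6%). Mrps28 (-1.51 ± 0.10) and Mrpl54 (-1.28 ± 0.09) had the largest changes at 24 h. At 0.5 mM and 24 h 7 were higher and 6 lower (9.59% and 8.22%, against 12.7% and 16.1% of all genes). At 0.5 mM and 48 h 0 were higher and 41 lower (56.2%, against 14.1% of all genes), with a median of -0.22. In water 16 of the 73 were higher at 48 h than at 24 h and 0 lower, where 5.11% of all genes were higher. The comparisons at 48 h share those water cultures.

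Of 17 genes known to control ribosomal protein genes or their mRNAs, 7 rose and 6 fell at 10 mM and 24 h (41.2% and 35.3%, against 31.1% and 25% of all genes). At 0.5 mM and 24 h 1 was higher and 7 lower (5.88% and 41.2%, against 12.7% and 16.1%). At 48 h 5 were higher and 3 lower at 10 mM (29.4% and 17.6%, against 27.6% and 22.3%). With 0.5 mM for 48 h 3 were higher and 4 lower (17.6% and 23.5%, against 11.9% and 14.1%). Myc, a transcription factor of ribosome production, changed by -1.36 ± 0.09 at 10 mM and -1.06 ± 0.09 at 0.5 mM at 24 h, and by -1.11 ± 0.09 and -0.63 ± 0.09 at 48 h. Larp1, which binds the TOP start, changed by -0.77 ± 0.11 and -0.77 ± 0.11 at 24 h. Rps6ka3, a kinase excluded from the members by the rule, rose by 1.24 ± 0.19 at 10 mM and 24 h, and Mdm2, which Rpl5 and Rpl11 can bind, by 1.03 ± 0.07 at 10 mM and 48 h. The list of like paralogs, with 4 tested names, also holds the member Rps4y2, whose falls are given above. In it Rpl26l1 was the 1 that rose, by 1.13 ± 0.17 and 1.27 ± 0.17 at 10 mM, while Rpl7l1 changed by -0.24 ± 0.06 and -0.35 ± 0.06.

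**Figure D5:**
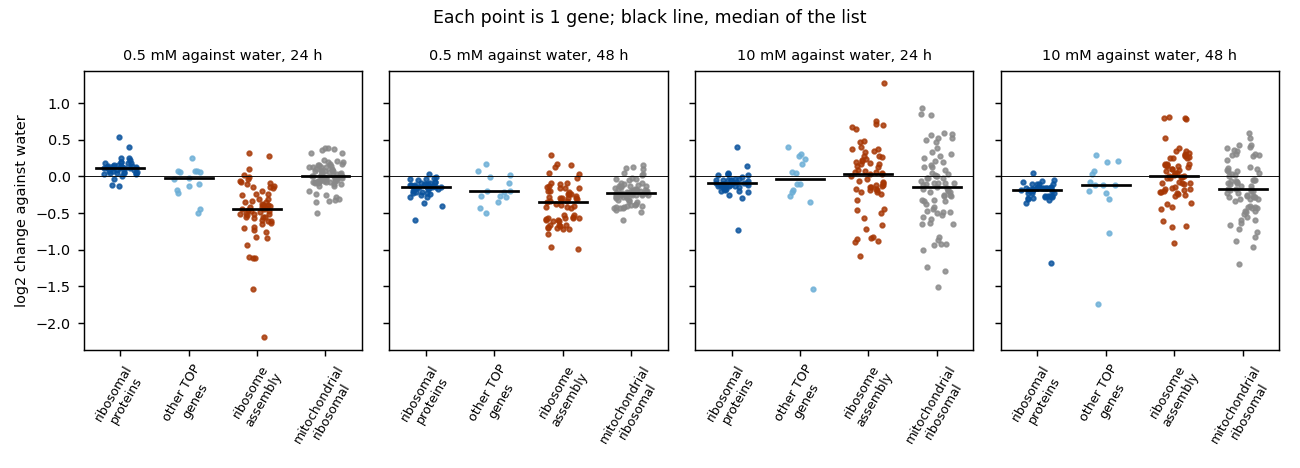
Log2 change against water of each tested gene (points) in 4 lists, by dose and time, as deposited, with the list median as a line. Ribosome assembly genes lie mostly below 0 at 0.5 mM (medians -0.45 and -0.34) and on both sides at 10 mM, whereas the ribosomal proteins lie close together around medians of 0.12, -0.14, -0.09 and -0.18, whose sign at 24 h turns with the scaling.

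Most hepatocyte and Kupffer cell markers had a negative change at 10 mM. Of 10 tested hepatocyte markers 9 were lower and 0 higher at 10 mM and 24 h, with a median of -0.52. The share lower was 90%, against 25% of all genes. Their summed signal lay between 324920 and 380858, against 444394 to 550140 in water. At 48 h 5 were lower and 1 higher (50% and 10%, against 22.3% and 27.6% of all genes). The sums were then 368736 to 414477 against 428137 to 485236. Of 7 tested Kupffer cell markers 5 were lower and 0 higher at each time. The share lower was 71.4%, against 25% of all genes at 24 h and 22.3% at 48 h. The Kupffer sums were 6502 to 7834 against 20594 to 24612 at 24 h and 5283 to 10336 against 17937 to 20151 at 48 h. Stellate, endothelial and biliary markers had 7, 3 and 2 tested, with 2, 1 and 1 lower and 0 higher at 10 mM and 24 h. At 10 mM and 48 h 2, 0 and 1 were lower and 0 higher. The stellate share, 28.6% at each time, was near that of all genes, and the other 2 lists hold few genes. At 0.5 mM and 48 h, where the ribosomal proteins were lower, 3 of 10 hepatocyte markers were higher and 0 lower. Of all genes 11.9% were higher and 14.1% lower there. The sums of the hepatocyte markers were then 495249 to 535078. Median sums of the stellate list were 4539 in water and 3665 at 10 mM at 24 h, those of the endothelial list 1257 and 973, and those of the biliary list 7847 and 6916. At 48 h they were 4560 and 3571 for the stellate list and 1141 and 924 for the endothelial list. The biliary sums at 48 h were 4967 to 6585 at 10 mM against 10579 to 12264 in water, with 1 of 2 tested markers lower. No list summed to 0 in any group, and the part of these cells in the changes of the ribosomal proteins was not tested.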

How the data were processed

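Gene expression was measured on 30 single-colour Affymetrix arrays, 5 for each of the 6 groups. The deposited values are linear intensities of 31099 probesets made with MAS5, per the submitters' processing notes, whose version the sources used here do not give. The trimmed mean of each array, without the highest and lowest 2% of values, ranged from 1500.53 to 1500.68, which is a scaling to one target. From these intensities log2(signal + 16) was computed here, 57 control probesets were left out, and probesets with a mean under the 30th percentile (7.39) were dropped, which left 21729. One model of the 6 groups was fitted with limma 3.58.1 in R 4.3.3 (empirical Bayes with a trend, 24 residual degrees of freedom), with Benjamini-Hochberg adjustment over all probesets tested and calls at 0.05. The code was tested on simulated data. Figures were drawn with matplotlib 3.10.9. An array gives no read depth, and the number of arrays limits the precision.

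A gene was represented by its brightest probeset with 1 symbol; 436 probesets had several symbols and 9780 none. Of the 43 members 41 matched the gene table with the same symbol. Cultures were numbered in accession order, and those numbers are names only. Per-culture values are given for the 5 largest called rises and falls at 10 mM, the 3 largest in the other comparisons with water, over time and in the interactions, and always for Rplp0, Rpsa, Rps6, Rpl5 and Rpl11, the last ones partly by their changes; of other lists at most 4 called genes a comparison are named. Rpl39 was named after its values were seen. The members and lists were chosen with earlier results of these data known. The contrast between the doses, the centring on the family, the restriction to bright genes, the assembly counts under alternatives and the tract rule of 10 bases were chosen after seeing the data. Alternatives covered the scaling, pseudocount, filter, variance model, array weights, probeset choice, RNA quality, array order and leaving out each culture. Protein sequences were not used here.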

Additional observations from a re-analysis of the deposited data

Results flagged for a closer look

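Among 84 groups of 5 cultures examined, 5 had a culture far from the others, and chance gives about 1 in 20 groups. The actin log2 ratio was 2.76 in water replicate 3 of 24 h, where the next value was 1.70, and 1.33 in water replicate 1 of 48 h, where the next was 1.22. Rpl13a read 15.51 in water replicate 3 of 24 h, with the next at 15.29. In water replicate 3 of 48 h Rpl35a read 15.19, with the next at 15.32, and Rps9 read 15.36, with the next at 15.44.

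The effect of a dose differed between the times for some members by the limma interaction test. At 0.5 mM 23 members were called, all with a lower change at 48 h, including Rpl24 (-0.46), Rpl14 (-0.41) and Rps9 (-0.39). At 10 mM 1 member was called, Rpl14 (-0.24). The count at 0.5 mM was 6 without the 3 arrays of high actin ratio and 0 after median centring.

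A control probeset of 5S rRNA, which was in none of the comparisons, had a mean log2 signal of 10.43 at 10 mM and 48 h, against 9.21 in water at 48 h. The difference was 1.22, with a two-sided exact permutation p of 0.00794, the smallest that 252 arrangements allow. The probeset was not in the plan and was flagged by these values, so the p does not allow for that choice. Of all genes tested 27.6% were called higher at 10 mM and 48 h by limma. At 24 h the difference was -0.11 (exact permutation p = 0.579).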

How the results depend on the processing

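The scaling of the arrays moved the counts of called ribosomal proteins most, and the direction of the family's median rested on it. Shares of all genes were computed for quantile normalization only in the comparisons of a dose with water, and not for median centring. After quantile normalization 22 rose and 2 fell at 10 mM and 24 h (median 0.112), 4 higher and 6 lower at 48 h (median 0.0031), 1 higher and 7 lower at 0.5 mM and 24 h (median -0.045) and 30 lower at 0.5 mM and 48 h. In water 14 were then higher at 48 h, and 6 had a lower 10 mM effect at 48 h, while the median of the 0.5 mM interaction was -0.13. Between the doses 27 were higher and 2 lower at 24 h (median 0.133), and 30 higher and 1 lower at 48 h (median 0.159). With that scaling Rpl13a (0.032), Rpsa (0.19) and Rpl11 (0.18) had positive changes at 10 mM and 24 h, and Rpsa (0.031), Rpl5 (0.042) and Rpl11 (0.032) at 48 h. After median centring 30 fell and 0 rose at 10 mM and 24 h (median -0.274), with 23 assembly genes lower and Rpl35a at -0.042. The median at 10 mM and 48 h was then -0.272. At 0.5 mM 0 were higher and 1 lower at 24 h (median -0.085) and 6 lower at 48 h. In water 0 were higher (median -0.0033), and the interactions had 0 called at 10 mM (median -0.0063) and 0 at 0.5 mM (median -0.066). Between the doses 18 were lower at 24 h, and 0 higher and 8 lower at 48 h (median -0.137). Centred on the family, 3 were higher at 10 mM and 24 h, and 2 higher and 10 lower at 48 h (median -0.038), with 6 assembly genes lower. At 0.5 mM 2 were higher and 1 lower at 24 h (median 0.0066), and 2 higher and 5 lower at 48 h (median -0.0058), with 23 assembly genes lower. In water 0 were higher, the 10 mM interaction had 0 and the 0.5 mM interaction 1 higher and 2 lower (median -0.021). Between the doses 4 were higher and 12 lower at 24 h (median -0.054) and 8 lower at 48 h.

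Smaller counts moved with other settings. The 1 rise at 10 mM and 24 h became 0 without a filter, without a trend, with only the groups compared and without the 3 arrays of high actin ratio. Without a filter 1 was higher at 10 mM and 48 h. The 9 rises at 0.5 mM and 24 h became 4 without a trend, 3 with only the groups compared, 5 with array weights and 5 with the actin ratio as a covariate, and 1 fall was called there on probesets with no letter suffix, which also gave 1 rise between the doses at 24 h. The 13 falls at 0.5 mM and 48 h became 7 with only the groups compared, 20 with array weights, 7 with the actin covariate and 7 without the 3 arrays. In water 1 was higher without a filter, without a trend, with only the groups compared, with array weights, with averaged probesets, with array order as a block and among bright genes alone, and 0 with the actin covariate. The 10 mM interaction had 0 without a filter, without a trend, with averaged probesets and with the actin covariate, 2 with only the groups compared and 3 with array weights. The 0.5 mM interaction had 15 without a filter, 13 without a trend, 13 with only the groups compared, 2 with the actin covariate and 6 without the 3 arrays. Leaving out 1 culture at a time gave 0 to 1 higher and 6 to 13 lower at 10 mM and 24 h, 3 to 13 higher at 0.5 mM and 24 h, 7 to 19 lower at 0.5 mM and 48 h, 0 to 3 higher in water, 0 to 2 in the 10 mM interaction and 13 to 29 in the 0.5 mM interaction. The cause of these moves was not tested. The labels give no replicate numbers, but the running numbers of the titles put 1 array of each group in each run of 6. With that run as a block the call of Rps4y2 in water was lost (adjusted p = 0.0591) beside the count already given, and the other calls of named genes stood. Signals of most members lie near the top of the array's range, and whether this limits what a fold change can show was not tested. The 209 other genes in that range changed by between -2.23 and 0.81 at 10 mM and 24 h as deposited.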
